A study of Macaca mulatta with 24 samples.

Results

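The effect of a Western-style diet on omental fat, without added testosterone, was examined in 12 of the 24 libraries of the series, 6 from animals fed the diet (*WSD*) and 6 from controls (*C*). The libraries were chosen by diet and by the absence of a testosterone implant, and no expression value entered the choice. The series measured RNA in biopsies of omental white adipose tissue (WAT), a visceral fat depot, from 24 female rhesus macaques in 4 groups of 6, which also include animals given testosterone (*T*) or testosterone and the diet (*T* + *WSD*). *C* animals ate monkey chow and *WSD* animals a high-fat diet, and both groups carried cholesterol implants as the control for testosterone. Per the labels, every animal was 4 years old and had been treated for 3 years, while the study's methods give an older age at biopsy. The animals were not a random draw from their groups, since those sampled were picked as typical of their group in fat mass and insulin. Each library came from 1 animal, so the p values below measure the spread between animals.

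Adipocytes store fatty acids as triglyceride and release them by lipolysis, and they burn part of their fuel in mitochondria through fatty acid oxidation, the TCA cycle and the respiratory chain. They also export cholesterol, a process controlled in part by the liver X receptors (LXR), which sense oxysterols. Omental fat is covered by mesothelium, a sheet of epithelium-like cells, and holds vessels, macrophages and fibroblast-like progenitors among the adipocytes.

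Between 8873248 and 23839192 reads were counted on genes in these 12 libraries. Adipocyte markers identified the tissue in both groups, with ADIPOQ (adiponectin) at 381 to 1827 CPM (read counts scaled to library size), PLIN1 (the main lipid droplet coat of adipocytes) at 315 to 2812 CPM and FABP4 (a fatty acid carrier) at 1346 to 7283 CPM. One control, C 1, stood apart. Relative to the mean of *C*, its mean log2 CPM was -1.84 over 15 adipocyte markers and 1.09 over 13 mesothelial markers. The mesothelial marker MSLN (mesothelin) was at 1709 CPM in C 1 against 78.6 to 617 CPM in the other controls. In bulk tissue, more cells of a type and more RNA per cell cannot be told apart. In 4 of the 12 libraries (C 1, C 2, WSD 19 and WSD 20) the gene ENSMMUG00000038258 took 9.92% to 40.2% of the counts, and in the others at most 2.51%. Across the series 8 libraries had over 5% of counts in that gene.

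By edgeR's quasi-likelihood test no gene of 15207 tested passed in *WSD* against *C* at a fold change over 1.5 with an adjusted p under 0.05 (0.0% of tested genes). The smallest adjusted p was 0.0593. An unadjusted p under 0.05 was found for 2807 genes (18.5%), of which 1458 were higher (9.59%) and 1349 lower (8.87%) in *WSD*. Upper-quartile scaling moved that split to 1190 higher and 1715 lower. With DESeq2 the calls numbered 102 higher (0.679%) and 136 lower (0.905%) genes. The limma voom test with sample weights called 0 genes, with 1516 at an unadjusted p under 0.05. These settings differed from edgeR's in more than the test, since DESeq2 used its own scaling and filters (15027 genes) and voom weighted the samples. Every one of the 6 *WSD* animals lay above every control for 35 genes (0.23%) and below every control for 26 genes (0.171%). Without C 1, 1609 genes had an unadjusted p under 0.05 (930 higher, 6.07%, and 679 lower, 4.43%), and the smallest adjusted p was 0.154. Fold changes below are log2 values with their standard error (SE).

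An adjusted p under 0.1 was found for 18 genes (0.118%), 9 higher and 9 lower. CETP, which moves cholesteryl esters between lipoproteins, ran from 2.49 to 20.3 CPM in *C* (median 8.84) and from 33.8 to 186 CPM in *WSD* (median 50.2). All 6 *WSD* animals lay above every control, with WSD 20 the highest by far. Its log2 fold change was 2.76 (SE 0.52, edgeR adjusted p = 0.0593), and 2.69 without C 1. SULT1B1, a sulfotransferase that acts on thyroid hormone and small phenols, ran from 1.35 to 5.58 CPM in *C* (median 2.49) and from 5.66 to 45.7 CPM in *WSD* (median 10.1), a log2 fold change of 2.67 (SE 0.56, edgeR adjusted p = 0.0952). Here the groups just failed to overlap, and WSD 20 and WSD 21, at 45.7 and 27.9 CPM, lay above the other *WSD* animals, which reached at most 12.5 CPM. TSHR, the receptor for thyroid-stimulating hormone, ran from 6.69 to 35.8 CPM in *C* (median 19.8) and from 41.8 to 113 CPM in *WSD* (median 58.4), with a log2 fold change of 1.78 (SE 0.42, edgeR adjusted p = 0.131).

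EPAS1, the oxygen-sensitive subunit of the factor HIF-2 and a gene of vessels, ran from 233 to 380 CPM in *C* (median 344) and from 413 to 684 CPM in *WSD* (median 537). Its log2 fold change was 0.73 (SE 0.16, edgeR adjusted p = 0.0952), and no *WSD* animal overlapped with *C*. PINK1, a kinase that marks damaged mitochondria for removal, ran from 35.3 to 49.6 CPM in *C* (median 44) and from 58.6 to 79.8 CPM in *WSD* (median 70.4). All 6 *WSD* animals again lay above every control, with a log2 fold change of 0.68 (SE 0.14, edgeR adjusted p = 0.0927). LONP1, the protease of the mitochondrial matrix, showed the same lack of overlap, at 56.5 to 82.1 CPM in *C* and 84.2 to 136 CPM in *WSD* (log2 fold change 0.57, SE 0.12, edgeR adjusted p = 0.105).

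Smaller differences with little spread completed the higher genes. HMOX2, the constitutive heme oxygenase, ran from 28.8 to 38.8 CPM in *C* and from 39 to 52.9 CPM in *WSD* (log2 fold change 0.43, SE 0.08, edgeR adjusted p = 0.0593). HBS1L, which helps to rescue stalled ribosomes, was higher by 0.38 on the log2 scale (SE 0.08, edgeR adjusted p = 0.0967), also with no overlap. AARS1, the alanyl-tRNA synthetase, was higher by 0.59 (SE 0.13, edgeR adjusted p = 0.0952) and PARVB, an adaptor at focal adhesions, by 0.51 (SE 0.10, edgeR adjusted p = 0.0718), each with 5 of 6 *WSD* animals above every control. The remaining one, ENSMMUG00000040072, had no symbol here and was nearly silent in *C*, at 0 to 0.206 CPM against 0.815 to 2.33 CPM in *WSD* (log2 fold change 3.65, SE 0.68, edgeR adjusted p = 0.0593).

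**Figure D1:**
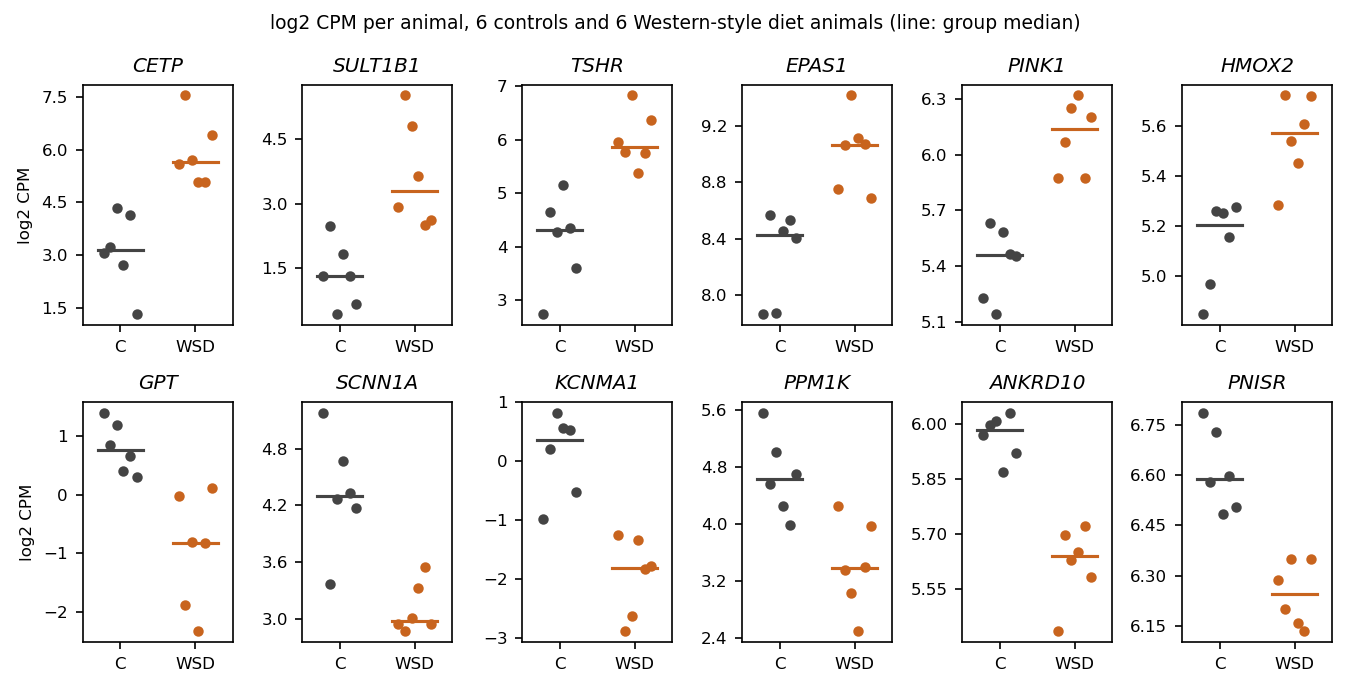
Each panel plots log2 CPM (vertical axis, with its own scale) of 1 gene in the 6 controls (*C*, grey) and the 6 animals fed the Western-style diet (*WSD*, orange), where a point is an animal and a line the group median. All 6 *WSD* animals lie above every control for CETP, SULT1B1, TSHR, EPAS1, PINK1 and HMOX2, and below every control for GPT, KCNMA1, ANKRD10 and PNISR, while SCNN1A and PPM1K have 5 of 6 below.

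Among the lower genes, SCNN1A, the alpha subunit of the epithelial sodium channel, ran from 10.3 to 36.2 CPM in *C* (median 19.7) and from 7.32 to 11.7 CPM in *WSD* (median 7.9). Its log2 fold change was -1.30 (SE 0.25, edgeR adjusted p = 0.0593), with 5 of 6 *WSD* animals below every control. KCNMA1, the pore subunit of the large-conductance calcium-activated potassium channel, ran from 0.506 to 1.77 CPM in *C* and from 0.136 to 0.422 CPM in *WSD* (log2 fold change -2.04, SE 0.47, edgeR adjusted p = 0.131), with no overlap. GPRIN2, a protein that interacts with G protein subunits, was lower by a log2 fold change of -1.65 (SE 0.32, edgeR adjusted p = 0.0593).

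Of the other lower genes under an adjusted p of 0.1, several were splicing genes or small non-coding RNAs. ANKRD10, an ankyrin repeat protein, ran from 58.5 to 65.4 CPM in *C* and from 43.2 to 52.7 CPM in *WSD* (log2 fold change -0.34, SE 0.07, edgeR adjusted p = 0.0593). The splicing-related genes LUC7L3 and PNISR were lower by log2 fold changes of -0.65 (SE 0.13, edgeR adjusted p = 0.0627) and -0.37 (SE 0.08, edgeR adjusted p = 0.0967). All 6 *WSD* animals lay below every control for ANKRD10 and PNISR, and 5 of 6 did for LUC7L3. The RNAs SNORA53, SCARNA10 and a Y_RNA (ENSMMUG00000028452) had log2 fold changes of -1.20, -0.85 and -1.88 (edgeR adjusted p = 0.0593, 0.0718 and 0.0593), and the unnamed ENSMMUG00000022084 had -0.51 (edgeR adjusted p = 0.0593). Without C 1 the log2 fold change of LUC7L3 was -0.53. The setting of the read counter for strand and overlapping genes is not given in the sources used here, so values of small RNAs that lie inside other genes or have near-identical copies are uncertain.

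The study named 4 genes for the diet. GPT, the alanine aminotransferase that links alanine to pyruvate, ran from 1.23 to 2.64 CPM in *C* (median 1.69) and from 0.197 to 1.08 CPM in *WSD* (median 0.566), with no overlap. Across 24 alternative settings its log2 fold change stayed between -1.84 and -1.29, with adjusted p values from 0.00365 (DESeq2) to 0.483, and 0.348 without C 1 in edgeR. MOGAT1, which makes diacylglycerol from monoacylglycerol, was at 0 to 0.327 CPM in *C* and at 0.141 to 2.25 CPM in *WSD*. Of the *WSD* animals 4 were at 1.41 CPM or more, while WSD 19 and WSD 22 lay among the controls (0.141 and 0.158 CPM). CCDC3, a protein secreted by fat and endothelium, ran from 42 to 138 CPM in *C* (median 77.1) and from 98.6 to 351 CPM in *WSD* (median 182), with 3 animals above every control (log2 fold change 1.36, SE 0.38, edgeR adjusted p = 0.131). The identifier ENSMMUG00000013459, HOXA9 in the gene name table and HOXA10 in the study's tables, was at 45.4 and 41 CPM in C 1 and C 4 but at 0.126 to 2.46 CPM in the other controls and 0.271 to 1.79 CPM in *WSD*. Its log2 fold change of -3.95 (SE 1.29, edgeR adjusted p = 0.148) therefore rested on C 1 and C 4, and which of the HOXA genes the identifier covers is uncertain.

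Some further large differences without overlap were in genes of low level. EYS, named for its role in photoreceptors, ran from 0 to 7.07 CPM in *C* and from 7.36 to 25 CPM in *WSD* (log2 fold change 2.17). MYO18B (an unconventional myosin), TCIM (a transcription regulator linked to Wnt signalling) and FAM205C were higher by 1.39, 1.24 and 1.22 on the log2 scale, and WDR72, EDARADD and SBSPON lower by log2 fold changes of -1.17, -1.09 and -0.95, with edgeR adjusted p values from 0.131 to 0.197. A single animal can also carry a fold change. MOGAT2, an enzyme of the MOGAT1 family, had a log2 fold change of 5.48 (SE 1.25, edgeR adjusted p = 0.131), with WSD 21 at 136 CPM, the other *WSD* animals at 0 to 1.46 CPM and the controls at 0.295 to 0.985 CPM. U1 ENSMMUG00000024466, a spliceosomal RNA, had a log2 fold change of -4.10 with C 3 at 14.7 CPM and the other controls at 0.328 to 0.746 CPM.

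Genes of mitochondrial fuel use had the largest shares of higher members among the 52 lists. Of 25 tested genes of the nuclear-encoded respiratory chain, 20 were higher and 0 lower at an unadjusted p under 0.05, against 9.59% and 8.87% of all tested genes, and all 25 had a positive log2 fold change (median 0.49, against -0.02 over all tested genes). These shares over all tested genes are the background for each list in *WSD* against *C* with all animals kept. Of 20 TCA cycle genes 12 were higher and 0 lower (median 0.46), and of 19 fatty acid oxidation genes 11 were higher and 0 lower (median 0.42). No member reached an adjusted p under 0.1, the smallest being 0.135 by edgeR in the respiratory chain. COX5A, a subunit of cytochrome c oxidase, ran from 25.3 to 99.2 CPM in *C* (median 86.8) and from 80.7 to 249 CPM in *WSD* (median 123). Of the 6 *WSD* animals 5 lay above every control, and C 1 was the lowest of all 12 (log2 fold change 0.94, SE 0.30, edgeR adjusted p = 0.144).

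Further named members of these lists were higher as well. NDUFV1, a core subunit of complex I, ran from 74.5 to 152 CPM in *C* (median 118) and from 137 to 280 CPM in *WSD* (median 148). WSD 20 and WSD 24 were the highest and C 1 the lowest of the 12 animals for NDUFV1, as for COX5A. DLST, a subunit of the oxoglutarate dehydrogenase complex, had a log2 fold change of 0.62 (SE 0.19, edgeR adjusted p = 0.141), IDH3A, a subunit of isocitrate dehydrogenase, 0.47 (SE 0.17, edgeR adjusted p = 0.167, with WSD 22 the highest) and HADHA, the alpha subunit of the trifunctional protein of beta-oxidation, 0.50 (SE 0.15, edgeR adjusted p = 0.136). ACADS, the short-chain acyl-CoA dehydrogenase, was higher by 0.78 (SE 0.27, edgeR adjusted p = 0.164) and SLC25A20, which carries acylcarnitine into mitochondria, by 0.42 (SE 0.15, edgeR adjusted p = 0.172).

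The size of this difference rested on few animals. The mean log2 CPM of the respiratory chain list, set to 0 at the mean of *C*, was 1.11 in WSD 20 and 0.98 in WSD 24, between 0.00 and 0.33 in the other 4 *WSD* animals, -0.69 in C 1 and between -0.02 and 0.25 in the other 5 controls. Without C 1, 11 of the 25 were higher at a p under 0.05 (6.07% of all genes then), with a median of 0.36. Without WSD 20 the number was 7 (with 6.65% of all genes higher and 6.91% lower), and without WSD 24 it was 8 (8.78% higher and 10.2% lower). TCA cycle genes gave 9, 6 and 5 and fatty acid oxidation genes 6, 1 and 8 in the same 3 settings, and none of the 3 lists had a lower member in any of them. Without the libraries with over 5% of counts in ENSMMUG00000038258 the numbers were 9, 5 and 8 for the 3 lists, against 6.23% of all genes higher and 5.33% lower. Leaving those libraries out also removed 2 animals from each group. With all animals kept and those libraries marked by a covariate (the library covariate), the numbers were 20, 12 and 10. In that fit 1442 of 15207 tested genes were higher. The adipocyte list moved alongside, at 1.18 in WSD 20 and -1.84 in C 1. Of its 15 tested members 0 were higher or lower at a p under 0.05 (median 0.45), and its summed level ran from 3833 to 22149 CPM in *C* and from 15483 to 33348 CPM in *WSD*. The part of adipocyte content in the mitochondrial values was not tested.

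**Figure D2:**
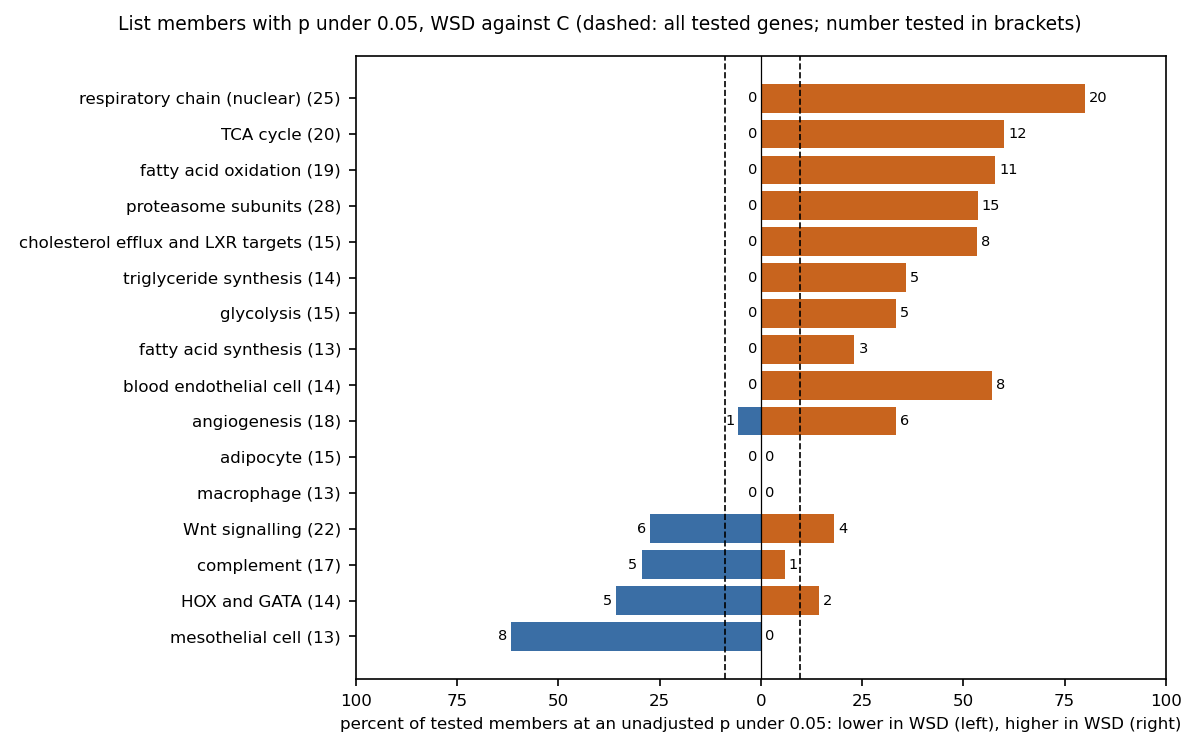
Bars give the percent of tested members of each list with an unadjusted edgeR p under 0.05 in *WSD* against *C* (horizontal axis), higher to the right and lower to the left, with the number of members at the bar's end and the number tested in brackets. Dashed lines mark the share over all tested genes (9.59% higher, 8.87% lower); the respiratory chain (20 of 25), TCA cycle (12 of 20) and fatty acid oxidation (11 of 19) lie far to the right and the mesothelial list (8 of 13) to the left.

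Subunits of the proteasome, the complex that degrades tagged proteins, were higher by small amounts. Of 28 tested, 15 were higher and 0 lower at a p under 0.05 (median 0.22), 9 without C 1, 8 without WSD 24 and 10 without the 8 libraries. With the library covariate 14 were higher. PSMD12 had a log2 fold change of 0.37 (SE 0.09, edgeR adjusted p = 0.131), PSMD11 of 0.27 (SE 0.08, edgeR adjusted p = 0.135) and PSMD4 of 0.29 (SE 0.09, edgeR adjusted p = 0.139). Cytosolic ribosomal protein genes showed 0 higher and 6 lower of 35 (median -0.16), which became 0 lower without C 1 and 3 without the 8 libraries. RPS3, for instance, had a log2 fold change of -0.40 (SE 0.15, edgeR adjusted p = 0.184). Over all tested genes 8.87% were lower, 4.43% without C 1 and 5.33% without the 8 libraries.

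Cholesterol export and LXR targets were also higher, CETP among them. Of 15 tested, 8 were higher and 0 lower at a p under 0.05 (median 0.68), 7 without C 1, 5 without WSD 20 and 5 without the 8 libraries (median 0.46). With the library covariate 8 were higher. ABCA1, the pump that loads cholesterol onto apolipoproteins, ran from 258 to 360 CPM in *C* (median 294) and from 314 to 755 CPM in *WSD* (median 496). Of the *WSD* animals 4 lay above every control and WSD 21 and WSD 23 lay within their range (log2 fold change 0.75, SE 0.20, edgeR adjusted p = 0.131). SCARB1, the receptor for high-density lipoprotein, ran from 53.9 to 244 CPM in *C* (median 169) and from 148 to 346 CPM in *WSD* (median 286), and APOE, an apolipoprotein of macrophages and adipocytes, from 305 to 2923 CPM and from 2121 to 4346 CPM. Their log2 fold changes were 0.72 (SE 0.26, edgeR adjusted p = 0.167) and 0.73 (SE 0.33, edgeR adjusted p = 0.239), and C 1 was the lowest animal for both. APOC1, another apolipoprotein, was higher by 1.07 (SE 0.45, edgeR adjusted p = 0.219), and 0.83 without C 1. Cholesterol synthesis genes showed 2 higher and 0 lower of 20 (median 0.12), a share close to that over all genes.

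Macrophage markers showed no such count. Of 13 tested, 0 were higher or lower at a p under 0.05 (median 0.07, and -0.12 without C 1), and their summed level ran from 317 to 1687 CPM in *C* and from 621 to 1486 CPM in *WSD*. CD163 and MRC1, receptors of resident macrophages, had log2 fold changes of 0.20 and 0.18 (edgeR adjusted p = 0.727 and 0.743), with no *WSD* animal outside the range of the controls. Of 11 markers of lipid-laden macrophages 3 were higher (APOE, APOC1 and the lysosomal protease CTSD, at 0.51, SE 0.16, edgeR adjusted p = 0.139) and 1 lower (CD9, a membrane organizer, at -0.66, SE 0.25, edgeR adjusted p = 0.178, and -0.37 without C 1). Without C 1 the numbers were 3 and 0. T and NK cell, mast cell and neutrophil markers had 0 members at a p under 0.05, and B and plasma cell markers 1 of 6, which was lower. Cytokines and their receptors showed 2 higher and 1 lower of 17, and 0 higher and 1 lower without WSD 20. These counts were close to the shares over all tested genes (9.59% and 8.87%, and 6.65% and 6.91% without WSD 20). IL33, an alarmin of stromal and mesothelial cells, ran from 18.2 to 94.9 CPM in *C* and from 10.4 to 20.8 CPM in *WSD* (log2 fold change -1.38, SE 0.39, edgeR adjusted p = 0.131). TNFAIP3, a brake on NF-kB signalling, and IL6 had log2 fold changes of 1.08 and 2.08 (edgeR adjusted p = 0.162 and 0.204). TNFAIP3 was at 83.9 CPM in WSD 20 and at 11.5 to 21.2 CPM in the other *WSD* animals, and IL6 was above 2 CPM in WSD 20 and WSD 22 alone.

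Some genes of fat storage, lipolysis and glycolysis were higher, with wide spread between animals. Over all tested genes 9.59% were higher and 8.87% lower at a p under 0.05. Of 14 triglyceride synthesis genes 5 were higher and 0 lower (median 0.35), of 13 fatty acid synthesis genes 3 and 0 (median 0.81), of 15 lipolysis genes 3 and 0 (median 0.33) and of 15 glycolysis genes 5 and 0 (median 0.37). Without C 1 the higher members numbered 2, 2, 1 and 2 (6.07% of all genes then), and without the 8 libraries 3, 2, 2 and 2 (6.23%). The lipolysis count without C 1 was close to the share over all genes. Of the fatty acid synthesis genes 0 were higher without WSD 24 (median 0.52, with 8.78% of all genes higher) and 1 without WSD 20 (6.65%). THRSP, a regulator of fat synthesis, ran from 38.8 to 3765 CPM in *C* (median 1957) and from 1232 to 9213 CPM in *WSD* (median 5633), and ACLY, which makes cytosolic acetyl-CoA, from 176 to 1924 CPM and from 326 to 3575 CPM. The groups overlapped for both, and the controls alone spanned more than the difference between medians (log2 fold changes 1.41 and 1.32, edgeR adjusted p = 0.26 and 0.259). FASN, the fatty acid synthase, had a log2 fold change of 0.87 (SE 0.58, edgeR adjusted p = 0.429) and SLC25A1, the mitochondrial citrate carrier, of 1.12 (SE 0.41, edgeR adjusted p = 0.172). DGAT1, which completes triglycerides, had 0.67 (SE 0.30, edgeR adjusted p = 0.238).

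ACSL3, which activates long-chain fatty acids, and PLIN2, a coat protein of small lipid droplets, had log2 fold changes of 1.10 and 1.03 (edgeR adjusted p = 0.133 and 0.182). WSD 20 stood far above the rest, at 315 CPM for ACSL3 against 49.1 to 109 CPM in the other *WSD* animals, and at 183 CPM for PLIN2 against 29.9 to 77.2 CPM. Without WSD 20 the log2 fold changes of ACSL3 and PLIN2 were 0.50 and 0.43. MGLL, the monoglyceride lipase, ran from 102 to 483 CPM in *C* (median 286) and from 302 to 723 CPM in *WSD* (median 525), with 4 animals above every control (log2 fold change 0.82, SE 0.27, edgeR adjusted p = 0.148). GPIHBP1, which anchors lipoprotein lipase in capillaries, had 0.79 (SE 0.30, edgeR adjusted p = 0.184), and LPL itself 0.76 (SE 0.37, edgeR adjusted p = 0.272). ADRB1, a beta-adrenergic receptor, had 1.31 (SE 0.60, edgeR adjusted p = 0.242). HK2, the insulin-responsive hexokinase, ran from 7.99 to 38.8 CPM in *C* and from 17.3 to 62.7 CPM in *WSD* (log2 fold change 1.08, SE 0.37, edgeR adjusted p = 0.16), with WSD 19 alone within the controls. ALDOA and GAPDH of glycolysis were higher by 0.67 and 0.68 (edgeR adjusted p = 0.136 and 0.209). LEP, leptin, ran from 4.39 to 673 CPM in *C* and from 205 to 1568 CPM in *WSD*, and its log2 fold change of 1.18 (SE 0.72, edgeR adjusted p = 0.384) did not exceed the spread.

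Amino acid genes pointed both ways. Of 16 genes of transamination and amino acid turnover 4 were higher and 3 lower at a p under 0.05 (median 0.31), 3 and 2 without C 1 and 2 and 3 without the 8 libraries. GPT, described above, was among the lower ones. ASNS (asparagine synthetase) and PSAT1 (of serine synthesis) were higher by 0.77 and 0.86 (edgeR adjusted p = 0.144 and 0.179). BHMT2, a homocysteine methyltransferase, was at 0 to 1.27 CPM in *C* and at 0.542 to 12.3 CPM in *WSD*, where WSD 21, WSD 22 and WSD 23 exceeded 5 CPM and the other 3 lay within the controls (log2 fold change 3.90, SE 0.91, edgeR adjusted p = 0.131). PPM1K, the phosphatase that activates breakdown of branched-chain amino acids, ran from 15.8 to 47.4 CPM in *C* (median 25) and from 5.64 to 19.1 CPM in *WSD* (median 10.4). Of the 6 *WSD* animals 5 lay below every control (log2 fold change -1.26, SE 0.29, edgeR adjusted p = 0.131). The list of branched-chain amino acid breakdown as a whole showed 3 higher and 1 lower of 20 (median 0.18), and 1 and 1 without C 1. These counts were close to the shares over all tested genes (9.59% and 8.87%, and 6.07% and 4.43% without C 1).

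Many vessel genes were higher as well. Of 14 blood endothelial markers 8 were higher and 0 lower at a p under 0.05 (median 0.45), 6 without C 1, 4 without WSD 21 and 4 without the 8 libraries (median 0.32). With the library covariate 9 were higher. KDR and TEK of the same list had negative log2 fold changes, of -0.38 and -0.17 (edgeR unadjusted p = 0.183 and 0.366). NOTCH4, a Notch receptor of endothelium, ran from 9.84 to 33.3 CPM in *C* (median 26.2) and from 29.7 to 54 CPM in *WSD* (median 41.5), with 5 animals above every control. Its log2 fold change was 0.83 (SE 0.22, edgeR adjusted p = 0.131), and those of PLVAP, a protein of fenestrated capillaries, and PECAM1, an endothelial adhesion molecule, were 0.85 (SE 0.24, edgeR adjusted p = 0.131) and 0.43 (SE 0.16, edgeR adjusted p = 0.172). Of 18 angiogenesis genes, 6 were higher and 1 lower, 4 and 1 without C 1 and 3 and 1 without the 8 libraries. NRP1 and FLT1, receptors of the VEGF family, were higher by 0.62 (SE 0.19, edgeR adjusted p = 0.139) and 0.73 (SE 0.23, edgeR adjusted p = 0.144). PGF, a ligand of FLT1, was the lower one, at 5.75 to 25.2 CPM in *C* and 4.74 to 11.9 CPM in *WSD* (log2 fold change -1.07, SE 0.29, edgeR adjusted p = 0.131). Lymphatic endothelial markers had 0 of 5 at a p under 0.05.

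**Figure D3:**
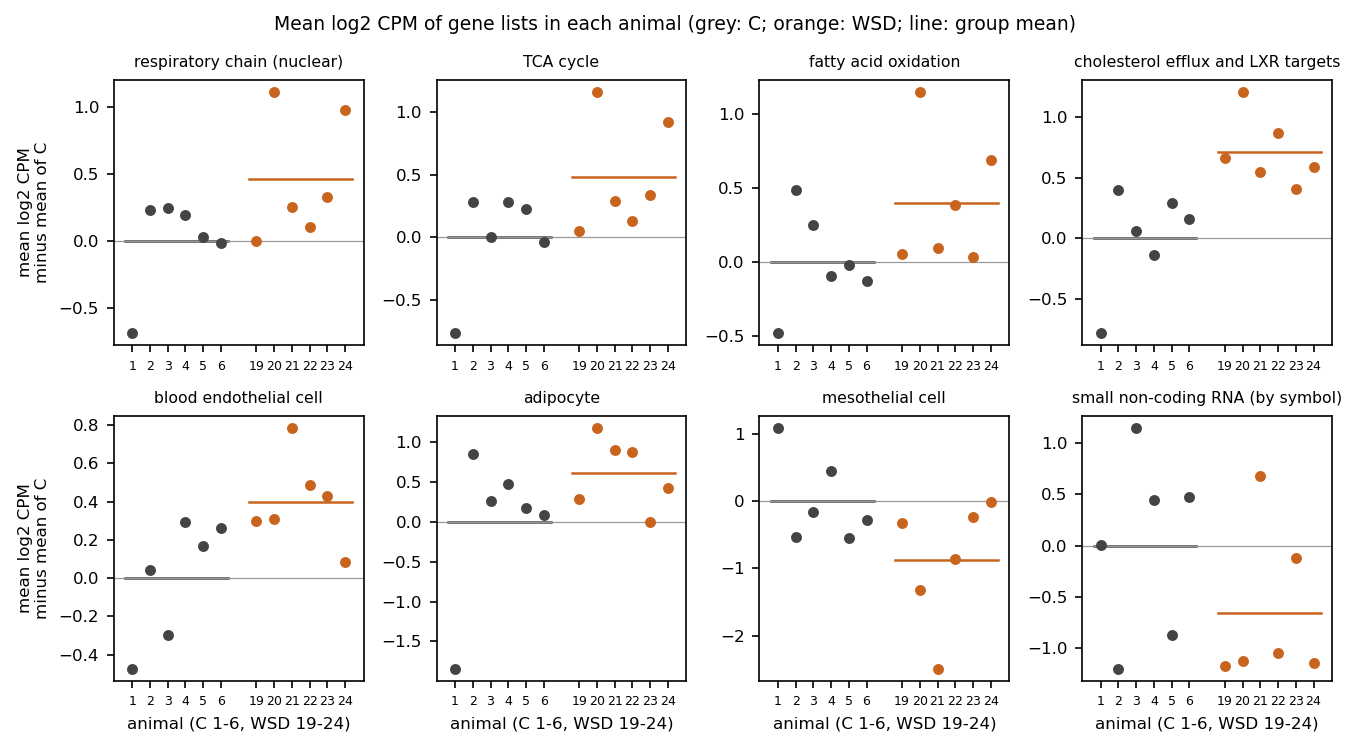
Points give the mean log2 CPM over the tested members of a list in each animal, minus the mean of *C* (vertical axis, with its own scale), for C 1 to C 6 (grey) and WSD 19 to WSD 24 (orange), with lines at the group means. WSD 20 and WSD 24 are the highest for the respiratory chain (1.11 and 0.98), C 1 is the lowest for the respiratory chain (-0.69) and adipocyte lists (-1.84), and WSD 21 is the lowest for the mesothelial list (-2.49).

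Most mesothelial markers were lower, and this rested on C 1. Of 13 tested, 8 were lower and 0 higher at a p under 0.05 (median -1.03), while without C 1 the number was 0 (median -0.57) and it was 2 without WSD 20 and 2 without the 8 libraries. With the library covariate 6 were lower. ITLN1, a lectin (omentin) secreted in omental fat, ran from 1736 to 35030 CPM in *C* (median 6398) and from 521 to 5027 CPM in *WSD* (median 3490). The highest value was that of C 1, and WSD 20 and WSD 21 lay below every control (log2 fold change -1.75, SE 0.76, edgeR adjusted p = 0.227, and -0.81 without C 1). MSLN, UPK3B (a uroplakin of mesothelium), CDH3 (P-cadherin), BNC1 (a zinc finger factor of epithelia) and PKHD1L1 had log2 fold changes between -1.41 and -1.07 (edgeR adjusted p from 0.198 to 0.24), and C 1 was the highest animal for each. Without C 1 their log2 fold changes lay between -0.84 (CDH3) and -0.53 (MSLN). CALB2 and KRT7 of the same list had positive log2 fold changes, of 0.75 and 0.06 (edgeR unadjusted p = 0.143 and 0.943). The summed level of the list ran from 2994 to 40379 CPM in *C* and from 834 to 6428 CPM in *WSD*.

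Some complement genes were lower, beside the mesothelial list. Of 17 complement genes 5 were lower and 1 higher (median -0.27), 1 and 1 without C 1 and 3 and 1 without the 8 libraries. CFI, the protease that inactivates C3b, ran from 48 to 173 CPM in *C* (median 73.5) and from 17.9 to 52.1 CPM in *WSD* (median 33.7), with 4 animals below every control (log2 fold change -1.38, SE 0.34, edgeR adjusted p = 0.131). C3, the central component, had a log2 fold change of -1.03 (edgeR adjusted p = 0.19) and of -0.55 without C 1, and CFD (adipsin), made by adipocytes, was the higher one at 0.72 (SE 0.26, edgeR adjusted p = 0.166). Of 22 matrix genes 3 were lower, against 8.87% of all tested genes, and 2 without C 1. Among the 3 were LAMB1 (a laminin chain, -0.76, SE 0.22, edgeR adjusted p = 0.133, and -0.44 without C 1) and POSTN (periostin, -1.39, SE 0.54, edgeR adjusted p = 0.189). The inhibitor of matrix proteases TIMP1 had a log2 fold change of -0.87 (edgeR adjusted p = 0.258), and of -0.45 without C 1. The protease MMP7 was at 0 to 0.409 CPM in *C* and at 0.0832 to 2.53 CPM in *WSD* (log2 fold change 2.5, edgeR adjusted p = 0.203). With the mesothelial mean as a covariate 1 complement gene, 1 matrix gene and 1 Wnt gene were lower at a p under 0.05, and over all tested genes 806 were higher in place of 1458 and 530 lower in place of 1349. In that fit 13 of 25 respiratory chain, 6 of 20 TCA cycle and 3 of 19 fatty acid oxidation genes were higher. The LXR list had 3 of 15 higher, the endothelial list 2 of 14 and the proteasome list 16 of 28. All of these numbers but that of the proteasome were smaller than in the main fit.

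Wnt genes differed in both directions. Of 22 tested, 6 were lower and 4 higher (median -0.31), while 2 were lower and 3 higher without C 1 (median -0.20), 2 and 2 without the 8 libraries, and 1 and 2 with the mesothelial covariate (median 0.018). The ligand WNT2B ran from 41.8 to 122 CPM in *C* and from 16 to 55 CPM in *WSD* (log2 fold change -0.93, SE 0.27, edgeR adjusted p = 0.131), and SFRP2, which binds Wnt ligands, and the receptor FZD7 had log2 fold changes of -1.47 and -0.97 (edgeR adjusted p = 0.167 and 0.179), that of FZD7 being -0.50 without C 1. The co-receptor LRP5 and the receptor FZD4, which is present on endothelium, were higher by 0.36 and 0.60 (edgeR adjusted p = 0.151 and 0.192), and the secreted antagonist DKK2 by 1.27 (edgeR adjusted p = 0.192). DKK2 ran from 2.08 to 5.76 CPM in *C* and from 1.83 to 17.9 CPM in *WSD*, with 3 *WSD* animals above every control and 1 below. The HOX and GATA list showed 2 higher and 5 lower of 14 (median -0.41), 1 and 1 without C 1 and 2 and 2 without the 8 libraries. HOXB8 and TBX15, both regional patterning genes, were the higher ones at 1.10 and 1.68 (edgeR adjusted p = 0.203 and 0.246).

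Of 16 genes of steroid handling 5 were higher and 1 lower (median 0.12), 2 and 1 without C 1 and 3 and 1 without the 8 libraries. STS, which frees steroids from their sulfates, ran from 4.55 to 20 CPM in *C* (median 16.5) and from 13.1 to 55.4 CPM in *WSD* (median 41.9), with WSD 19 alone within the controls (log2 fold change 1.40, SE 0.36, edgeR adjusted p = 0.131). AKR1C1 and AKR1C2, ketosteroid reductases of close sequence whose reads may be shared, had log2 fold changes of 0.66 and 2.67 (edgeR adjusted p = 0.209 and 0.148). AKR1C2 was at 124 and 73.1 CPM in WSD 20 and WSD 23, and at 2.83 to 25.3 CPM in the other 4. ESR1, the estrogen receptor alpha, was the lower one, at 9.57 to 21.9 CPM in *C* (median 11.1) and 5.78 to 10.7 CPM in *WSD* (median 7.95). Of the *WSD* animals 5 lay below every control (log2 fold change -0.78, SE 0.22, edgeR adjusted p = 0.131).

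Small non-coding RNAs were picked by their symbols after the leading genes had been seen, so their count is a description. Of 386 tested, 63 were lower and 5 higher at a p under 0.05 (median -0.57), against 8.87% of all tested genes lower, and 53 and 2 without C 1. With 1 animal left out the lower number ranged from 50 (without C 3) to 164, and the median from -1.14 (without WSD 21) to -0.29 (without C 3). Their mean spread widely between animals, from -1.20 to 1.15 in *C* and from -1.17 to 0.68 in *WSD*, and the groups overlapped. SNORA62, with all 6 *WSD* animals below every control, ran from 3.94 to 9.22 CPM in *C* and from 1.58 to 3.52 CPM in *WSD* (log2 fold change -1.02, SE 0.24, edgeR adjusted p = 0.131). Cell division genes (0 of 23), the unfolded protein response (0 of 19) and adipogenic and thermogenic factors (0 of 15) had no member at a p under 0.05.

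The same diet contrast was measured in 12 other animals, which all carried testosterone (*T* + *WSD* against *T*), and it shared no animal with *WSD* against *C*. There edgeR called 574 genes (3.77%). Of the 1458 genes that were higher in *WSD* at a p under 0.05, 974 had the same sign under testosterone (66.8%), and of the 1349 lower genes 1041 did (77.2%), against 61.6% of all tested genes. The medians of the vessel and LXR lists were positive in both. The median of the 14 endothelial markers was 0.41 under testosterone, with 7 higher at a p under 0.05, against 11.6% of all tested genes there. Of these markers 0 differed between the contrasts at an interaction p under 0.05. Over all tested genes 6.22% had a positive and 7.26% a negative interaction at that threshold. With 14 markers, 0 is not far from these shares. Under testosterone 3 endothelial markers were higher without the 8 libraries (median 0.23) and 0 with the mesothelial covariate (median 0.066). The 15 LXR genes had 3 higher and 0 lower under testosterone (median 0.36). Their higher members numbered 5 without the 8 libraries (median 0.41) and 0 with the mesothelial covariate (median -0.03). EPAS1 was higher by 0.61 (edgeR adjusted p = 0.0262), after 0.73 without testosterone. GPT had -0.83 (edgeR adjusted p = 0.175), BHMT2 5.4 (edgeR adjusted p = 0.00557), STS 1.26 (edgeR adjusted p = 0.0399) and ESR1 -0.81 (edgeR adjusted p = 0.0369). The median of the mesothelial markers was -1.92 under testosterone, with 11 of 13 lower at a p under 0.05, against 14.3% of all tested genes. CALB2 was positive there too, at 0.84 (edgeR unadjusted p = 0.108), while KRT7 had -3.93. A negative interaction at a p under 0.05 was found for 3 of these 13 markers, against 7.26% of all tested genes. The smallest adjusted interaction p among them was 0.172 by edgeR.

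The medians of the mitochondrial lists had the other sign. Under testosterone the respiratory chain had 0 higher and 5 lower of 25 (median -0.27), the TCA cycle 0 and 3 of 20 (median -0.30) and fatty acid oxidation 0 and 3 of 19 (median -0.29), against 11.6% of all tested genes higher and 14.3% lower there. Without the 8 libraries with over 5% of counts in ENSMMUG00000038258 the lower members numbered 0, 2 and 3 (medians -0.15, -0.21 and -0.14). With the library covariate they numbered 3, 3 and 3 (medians -0.27, -0.30 and -0.27). Without T 14 the lower members numbered 2, 1 and 2 (medians -0.14, -0.24 and -0.17). Without T 17 they numbered 7, 5 and 5 (medians -0.37, -0.36 and -0.39). The interaction of testosterone and diet, which tests the difference between the contrasts, was negative at a p under 0.05 for 23 of 25, 18 of 20 and 14 of 19 genes and positive for 0, against 7.26% and 6.22% of all tested genes. These numbers were 18, 14 and 10 without C 1 and 8, 7 and 11 without the 8 libraries. For fatty acid oxidation the number was 9 without T 14 and 17 without T 17. The interaction contains the *WSD* against *C* difference with its sign reversed, and these lists stood out by that difference. Negative interactions were therefore favoured in advance, and the shares over all genes are not an independent yardstick for them. Only the counts in *T* + *WSD* against *T* come from other animals. At an adjusted p under 0.1 (0.809% of tested genes) the interaction held for 2 genes of the respiratory chain and 1 of fatty acid oxidation, with NDUFV1 at -1.13 (SE 0.29, edgeR adjusted p = 0.0965). Of the 28 proteasome subunits 15 had a negative interaction at a p under 0.05, and 4 without those 8 libraries.

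**Figure D4:**
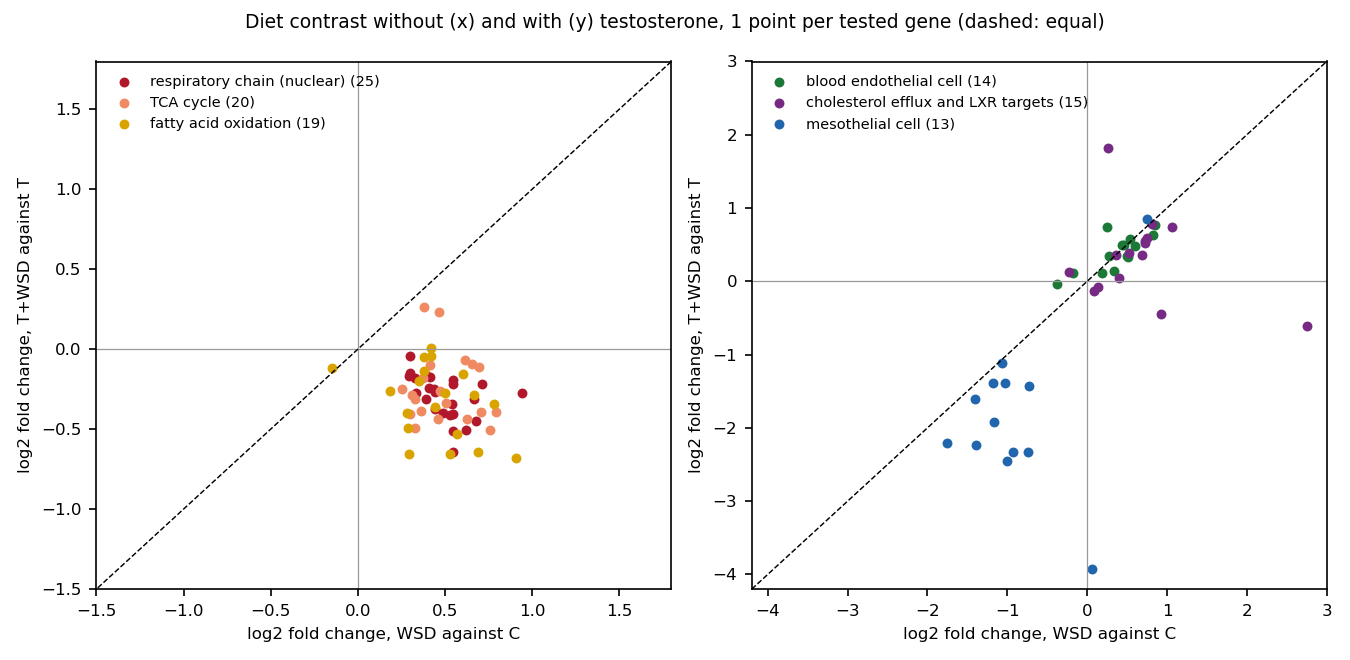
Each point is a tested gene, placed by its log2 fold change in *WSD* against *C* (horizontal axis) and in *T* + *WSD* against *T* (vertical axis), with the dashed line at equal values; left, the 3 mitochondrial lists, and right, endothelial, LXR and mesothelial lists. All mitochondrial genes but 1 of fatty acid oxidation lie to the right of 0, and most lie below it (respiratory chain medians 0.49 and -0.27), while most endothelial genes lie near the dashed line (medians 0.45 and 0.41).

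The interaction was called for 37 genes (0.243%) by edgeR, and for 0 without the 8 libraries (lowest edgeR adjusted p 0.0504, and 1488 genes below 0.05 before adjustment). That last fit had 2 animals fewer in each group. With all animals kept, the calls numbered 42 with the library covariate and 37 with ENSMMUG00000038258 removed before normalization. CETP, higher by 2.76 without testosterone, had -0.61 with it (edgeR adjusted p = 0.46), and the interaction was -3.36 (edgeR adjusted p = 0.0417). ANKRD10 (interaction 0.78, edgeR adjusted p = 0.000461), PNISR (0.79, edgeR adjusted p = 0.00109), LUC7L3 (1.0, edgeR adjusted p = 0.0197), ENSMMUG00000022084 (0.97, edgeR adjusted p = 0.00109) and the Y_RNA ENSMMUG00000028452 (3.46, edgeR adjusted p = 0.00179) had negative log2 fold changes with the diet alone and positive ones with the diet under testosterone. Of the 18 genes with an adjusted p under 0.1 in *WSD* against *C*, 10 had the same sign under testosterone. The diet contrasts without and with testosterone use separate animals but 1 fit with a shared estimate of the spread. The interaction is not separate, since it contains the *WSD* against *C* difference with its sign reversed. Genes picked for a small p in *WSD* against *C* are thereby drawn toward an interaction of the opposite sign.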

How the data were processed

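RNA of omental WAT was sequenced from 24 animals, 1 library each, and 12 entered the diet comparison. Libraries were made by the authors after removal of ribosomal RNA and read from one end. Reads passed through FastQC 0.11.5 and Trimmomatic 0.36, and STAR 2.5.2b placed them on rheMac8 (versions per the submitters' processing notes). The deposited table holds raw counts per gene for 32386 Ensembl genes, without normalization, and all its sample columns were used. The counting tool and its strand setting are not given in the sources used here. Groups came from the sample labels. Gene names came from a gene name table and, for 211 of 12625 tested genes with a symbol, from the study's supplementary tables. No genome, gene positions or sequences were used, and levels were not compared between genes.

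Counts were normalized by TMM and tested in edgeR 4.0.16 (R 4.3.3) by quasi-likelihood (glmQLFit and glmQLFTest, legacy=TRUE, robust=TRUE) in 1 fit over the 4 groups. filterByExpr (minimum count 10, minimum total count 15) kept 15207 genes. Tests are two-sided, with Benjamini-Hochberg adjustment over all tested genes, and the call rule was an adjusted p under 0.05 with a fold change over 1.5. CPM values use TMM-scaled library sizes, and log2 CPM adds a prior count of 2. Library depth limits genes under 1 CPM most. The step was tested on simulated data. Lists (52, 744 tested symbols) were written from general knowledge and are described by counts and medians beside those over all tested genes, with no set test. Named genes were the 4 that the study names for the diet, the 10 higher and 10 lower genes with the smallest p at a mean of at least 1 CPM, the 8 largest differences in each direction without overlap and with an unadjusted p under 0.05, in each list up to 3 higher and 3 lower genes with the smallest p, genes with an adjusted p under 0.1, and defining markers. The comparison, members and lists were chosen with earlier results of these data known.

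Alternatives were DESeq2 1.42.0, RLE or upper-quartile scaling, other filters, dispersion settings and thresholds, voom of limma 3.58.1 with sample weights, only the groups compared, a library covariate (ENSMMUG00000038258 over 5% of counts), those 8 libraries left out, that gene removed, the mesothelial mean as a covariate, and each animal left out in turn. Among 60 within-group pairs of libraries, 0 held identical values. DNA methylation was not analysed here. A few named genes are not reported here.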

Additional observations from a re-analysis of the deposited data

Results flagged for a closer look

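In 117 named genes, the highest and lowest animal of each group of 6 were compared with the nearest other animal, over 234 groups. The gap, as a share of the group's range, exceeded Dixon's critical value in 26 of them. That value assumes independent and normally distributed values, while these were CPM without log transformation. The genes were also named from the same animals and many vary together. The number of flags is therefore a description and was not compared with chance. C 1 held 9 of the highest values. It reached 35030 CPM for ITLN1, 1709 CPM for MSLN, 887 CPM for UPK3B, 1173 CPM for PKHD1L1 and 289 CPM for BNC1, all mesothelial markers. It also reached 18032 CPM for C3, 1663 CPM for LAMB1, 283 CPM for CD9 and 143 CPM for FZD7, and it was the lowest control for COX5A at 25.3 CPM. WSD 20 was apart at the top for CETP (186 CPM), ACSL3 (315 CPM), PLIN2 (183 CPM) and TNFAIP3 (83.9 CPM), and at the bottom for SBSPON (0.678 CPM). WSD 21 was apart for MOGAT2 (136 CPM) and LEP (1568 CPM), WSD 24 for PGF (11.9 CPM) and WSD 22 for HOXB8, where it was the lowest at 0.75 CPM. WSD 19 was the highest of its group for LUC7L3 (107 CPM) and the lowest for EDARADD, at 0 CPM. Among the controls, C 3 was apart for U1 ENSMMUG00000024466 (14.7 CPM) and WDR72 (10.1 CPM), C 4 for HBS1L (80.2 CPM), C 6 for DKK2 (5.76 CPM) and C 2 for NR4A3 (19 CPM).

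For 6 genes the diet contrast differed between animals without and with testosterone by the interaction test (edgeR, adjusted p under 0.05). All 6 were named for an edgeR adjusted p under 0.1 in *WSD* against *C*. The interaction contains that difference with its sign reversed, so it is not independent support. The interaction was -3.36 on the log2 scale for CETP, and it was positive for the Y_RNA ENSMMUG00000028452 (3.46), LUC7L3 (1.0), ENSMMUG00000022084 (0.97), PNISR (0.79) and ANKRD10 (0.78).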

How the results depend on the processing

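For *WSD* against *C*, edgeR called 0 genes, and other settings called 238 (DESeq2), 1 each (legacy=FALSE, only the groups compared, the library covariate) and 12 (adjusted p under 0.1). Leaving out 1 animal gave 0 to 59, with 59 without WSD 19, 4 without C 2 and 3 without C 5. The 2807 genes at an unadjusted p under 0.05 became 1516 (voom), 1809 (only the groups compared), 1786 (without the 8 libraries with over 5% of counts in ENSMMUG00000038258), 1336 (mesothelial covariate) and 1609 to 3404 (1 animal left out, lowest without C 1 and highest without WSD 19). For *T* + *WSD* against *T*, the 574 calls became 1086 (DESeq2), 1251 (voom), 1059 (only the groups compared), 308 (without the 8 libraries), 0 (mesothelial covariate), 988 (no fold threshold), 340 (fold change over 2) and 1069 (adjusted p under 0.1). They ranged from 238 (without T+WSD 10) to 738 (without T 14) with 1 animal left out. The 37 calls of the interaction became 165 (DESeq2), 7 (no filter on low counts), 0 (without the 8 libraries), 19 (mesothelial covariate), 24 (fold change over 2), 99 (adjusted p under 0.1) and 11 (without C 1) to 96 (without WSD 21). With the library covariate, which marks libraries by their share of ENSMMUG00000038258, the calls numbered 549 for *T* + *WSD* against *T* and 42 for the interaction. Leaving out the 8 libraries removed 2 animals from each group. The cause of these shifts was not tested. MSLN, itself one of the mesothelial genes averaged, turned to a log2 fold change of 0.055 with the mesothelial covariate, and was the 1 named gene to change direction. Low counts limit genes under 1 CPM. No paired analysis was possible because each group held different animals.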

Other observations

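Some further lists are given by their counts in *WSD* against *C*, where 9.59% of all tested genes were higher and 8.87% lower at an unadjusted p under 0.05. Oxidative stress defence had 6 higher and 1 lower of 22, and 3 and 0 without C 1, with NQO1, a quinone reductase, at a log2 fold change of 1.0 (edgeR adjusted p = 0.196). Of 18 genes of insulin signalling and glucose transport 4 were higher and 1 lower, with the kinase AKT2 at 0.50 (edgeR adjusted p = 0.206), and 1 and 0 without C 1. Of 12 heat shock genes 1 was higher, the mitochondrial chaperonin HSPD1, at 0.70 (edgeR adjusted p = 0.131). Of 17 clock genes 3 were lower and 0 higher, among them HLF (-0.54) and TEF (-0.51), with edgeR adjusted p values of 0.172 and 0.264, and 1 was lower without C 1, where TEF had -0.24. Of 14 immediate early genes EGR2 and NR4A3 were higher, by 1.37 and 1.46 (edgeR adjusted p = 0.184 and 0.259), and 0 were without WSD 20.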
